A study of Caenorhabditis elegans with 6 samples.

Results

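Lysosomal acid lipases release fatty acids from the lipids that reach the lysosome. *C. elegans* carries a family of them, the *lipl* genes, and 2 transcription factors are known to set their expression by nutrient state, the repressor *mxl-3* and the activator *hlh-30*. Described here are 9 genes of the 46739 listed, taken by name: *lipl-1* to *lipl-7*, *mxl-3* and *hlh-30*. The group was chosen with earlier results of these data known. All 9 were above 0, and 8 had at least 1 RPKM in at least 3 libraries and could be tested. *lipl-3* did not reach that level. RPKM is the number of reads divided by gene length in kilobases and by the size of the library.

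RNA came from whole *nhr-49(nr2041)* mutants (strain PMD122) and whole wild-type animals (strain PMD121), with 3 biological replicates of each. Both were late L4 larvae that had been kept on HT115 bacteria with empty vector RNAi at 20°C. *nr2041* is a partial deletion of *nhr-49*, which encodes a nuclear hormone receptor of fatty acid metabolism. The strains are F2 homozygotes from N2 crossed to STE68, and each genotype thus rests on 1 strain. RNA of whole animals cannot tell fewer cells of a type from less RNA per cell.

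By way of background, MXL-3 and HLH-30 are basic helix-loop-helix proteins with a leucine zipper. In fed animals MXL-3 represses lysosomal lipase genes, and in fasted animals its transcript falls while HLH-30, the homolog of mammalian TFEB, activates lipase and autophagy genes. LIPL-4 is further known for a signal from lysosome to nucleus, in which the lipid-binding protein LBP-8 acts with the receptors NHR-49 and NHR-80.

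Values implied library totals of 24523159 to 29408147 reads in the mutants and 27190567 to 30183162 reads in wild-type animals. The column headers place all 6 libraries on the same flow cell and lane. *nhr-49* itself was at 26.1, 22.1 and 26.1 RPKM in the mutants, against 39.4, 40.8 and 37.8 RPKM in wild-type animals, and since the deletion is partial these reads do not by themselves check the labels. All 8 intestinal marker genes were detected. A principal component with 22.4% of the variance set mutant replicate 1 and wild-type replicate 2 off from the remaining libraries, and values without this pair are given below for the genes that passed.

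*mxl-3*, the repressor, and the lipase gene *lipl-5* were lower in *nhr-49(nr2041)* mutants, while the lipase genes *lipl-1* and *lipl-2* were higher. These were 4 of the 8 genes tested, against 4.13% of all 13965 genes tested (577 genes, with 3.32% of all genes tested higher and 0.816% lower). Since the group was chosen with earlier results known, this share is a description and not a test of the group. *lipl-1* had the largest change of the group, with a mean 9.73 times that of wild-type animals, and *mxl-3* the next, with a wild-type mean 2.72 times that of the mutants. The other 4 genes tested, *lipl-4*, *lipl-6*, *lipl-7* and *hlh-30*, did not pass. The test was limma on log2(RPKM + 1) with Benjamini-Hochberg adjustment over all genes tested, and a call is an adjusted p under 0.05. On this scale the change of a gene with few reads is understated. The median log2 fold change of the 8 genes was 0.11, against 0.10 over all genes tested.

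**Figure D1:**
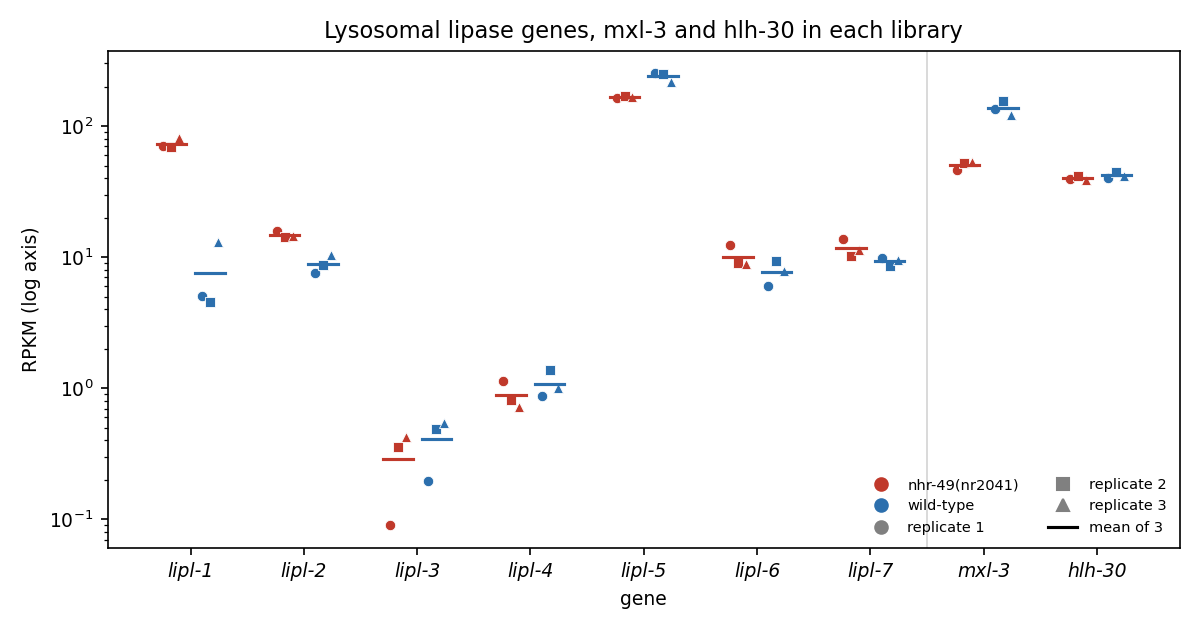
RPKM of each gene on a log axis, with 1 point per library (shape gives the replicate number) and a line at the mean of 3 libraries, for *nhr-49(nr2041)* mutants on the left of each pair and wild-type animals on the right. The genotypes lie far apart for *lipl-1* (69.2 to 80.4 RPKM in the mutants and 4.53 to 12.99 RPKM in wild-type animals) and for *mxl-3* (46.3 to 53.2 RPKM in the mutants and 121.98 to 154 RPKM in wild-type animals), while *hlh-30* points overlap.

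Of the regulators, *mxl-3* fell and *hlh-30* did not pass the test. *mxl-3*, on the minus strand of chromosome X (WBcel235, 13349639 to 13350804), was at 46.3, 52.2 and 53.2 RPKM in the mutants, against 136, 154 and 121.98 RPKM in wild-type animals. The lowest wild-type library was 2.30 times the highest mutant library, and between 1144 and 4660 reads lay behind each value. By limma this was a log2 fold change of -1.42 with an SE of 0.12 and an adjusted p of 0.000412, the 45th lowest value of all genes tested. The call held under all 17 alternatives tried, with an adjusted p at or below 0.0063 wherever p was adjusted. Among these, an unadjusted p and an added fold change threshold reuse this same fit and could not remove the call. The log2 fold change was -1.27 once mutant replicate 1 and wild-type replicate 2 were left out.

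*hlh-30*, on the minus strand of chromosome IV (4014793 to 4034951), was at 39.7, 41.8 and 38.7 RPKM in the mutants, against 40.4, 44.5 and 41.8 RPKM in wild-type animals, so that the genotypes overlapped. Its log2 fold change of -0.07 had a 95% confidence interval from -0.31 to 0.16 and an adjusted p of 0.796 (limma), and the whole interval lay above that of *mxl-3*. The annotation gives *hlh-30* 13 transcripts, and RPKM per gene does not tell them apart. It also overlaps 2 noncoding RNA genes, one of them on the other strand, and whether reads were counted by strand is not given in the sources used here. HLH-30 is known to be controlled by its entry into the nucleus, which transcript levels do not measure. *mxl-3* RPKM divided by *hlh-30* RPKM came to 1.17, 1.25 and 1.37 in the mutants, against 3.37, 3.47 and 2.92 in wild-type animals. The repressor's transcript was thus above that of the activator in every library, by less in each mutant library than in any wild-type one.

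Among the lipase genes *lipl-1* stood out. It lies on the plus strand of chromosome V (12919986 to 12921692) with 1 annotated transcript. In the mutants it was at 69.9, 69.2 and 80.4 RPKM (2270, 2464 and 3134 reads), against 5.05, 4.53 and 12.99 RPKM in wild-type animals (202, 180 and 468 reads). Every mutant library exceeded every wild-type library by at least 5.33 times. Wild-type replicate 3 was 2.71 times the mean of the other wild-type libraries, which made the wild-type spread wide (7.52 ± 4.74 RPKM, against 73.2 ± 6.30 RPKM in the mutants, SD, n = 3 each). By limma this was a log2 fold change of 3.25 with an SE of 0.33 and an adjusted p of 0.0011, the 59th highest value of all genes tested. It ran from 3.01 without wild-type replicate 2 to 3.68 without wild-type replicate 3, and the call held under all 17 alternatives.

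*lipl-2*, on the plus strand of chromosome V (9791567 to 9793241), was at 15.7, 14.2 and 14.6 RPKM in the mutants, against 7.59, 8.71 and 10.3 RPKM in wild-type animals. The groups did not overlap, as was so for 21.4% of all genes tested (17.6% with the mutants higher). Its log2 fold change of 0.69 (SE 0.15) passed narrowly (adjusted p = 0.0414 from limma). The call was lost without any 1 library: the limma adjusted p was 0.0803, 0.140 and 0.118 without mutant replicates 1, 2 and 3, and 0.192, 0.0874 and 0.0685 without wild-type replicates 1, 2 and 3. It was also lost after quantile normalization (adjusted p = 0.103) and with library medians set equal (adjusted p = 0.105), both of which bring the median of all genes down to between -0.04 and -0.02. Relative to the median of all genes the log2 fold change was 0.59.

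*lipl-5*, the most abundant lipase gene of the family in every library, was the only one to fall. It lies on the plus strand of chromosome V (385746 to 387740) and was at 162, 169 and 166 RPKM in the mutants, against 252, 251 and 218 RPKM in wild-type animals. The values were tight, with an SD of 3.40 RPKM in the mutants and 19.6 RPKM in wild-type animals, and did not overlap (3.78% of all genes tested were lower without overlap). By limma its log2 fold change came to -0.53 with an SE of 0.10 and an adjusted p of 0.0311, and to -0.63 relative to the median of all genes. The limma call was lost without mutant replicates 2 and 3 (adjusted p = 0.123 and 0.104) and without wild-type replicates 1, 2 and 3 (adjusted p = 0.173, 0.0862 and 0.0765). It held without mutant replicate 1 and wild-type replicate 2 together (limma adjusted p = 0.0095). That fit called more genes over all (950 higher and 350 lower) than the full one, so that passing there is a weak check.

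*lipl-6* and *lipl-7* are members of the family by sequence. *lipl-6* (chromosome V, minus strand, 6931475 to 6934312) was at 12.4, 9.02 and 8.88 RPKM in the mutants, against 6.07, 9.42 and 7.78 RPKM in wild-type animals. Its groups overlapped, and the log2 fold change of 0.35 had an interval from -0.12 to 0.81 (adjusted p = 0.535 from limma). *lipl-7* (chromosome IV, minus strand, 10239278 to 10241823) was at 13.8, 10.2 and 11.3 RPKM in the mutants, against 9.86, 8.56 and 9.53 RPKM in wild-type animals. The mutant libraries all lay above the wild-type ones, but the log2 fold change of 0.30 (interval -0.05 to 0.65) had an adjusted p of 0.462 from limma. In both genes mutant replicate 1 was the highest of the 6 libraries.

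*lipl-3* and *lipl-4* had few reads in either genotype. *lipl-4* (chromosome V, plus strand, 6550171 to 6552186) was at 1.14, 0.812 and 0.716 RPKM in the mutants, against 0.878, 1.38 and 1.00 RPKM in wild-type animals, from 27 to 53 reads a library. Its log2 fold change was -0.14 (interval -0.54 to 0.25, adjusted p = 0.765 from limma). An annotated tRNA gene and a noncoding RNA gene overlap it on the other strand, so that some of these few reads may not be its own. *lipl-3* (chromosome V, minus strand, 521595 to 524218) was at 0.0902, 0.357 and 0.426 RPKM in the mutants, against 0.195, 0.492 and 0.542 RPKM in wild-type animals. This came to 33 reads over the 3 mutant libraries (exact Poisson 95% interval 22.7 to 46.3) and 48 reads over the 3 wild-type libraries (35.4 to 63.6), where the intervals cover counting error only. Fitted with no filter on low values, its log2 fold change was -0.13 (interval -0.46 to 0.21, adjusted p = 0.770 from limma). The log2(RPKM + 1) scale understates a change at such values, and the interval does not bound the change in RPKM. The mutant mean was 0.710 times the wild-type mean. *lipl-8*, a further gene of the family, was listed at 0 in all 6 libraries.

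**Figure D2:**
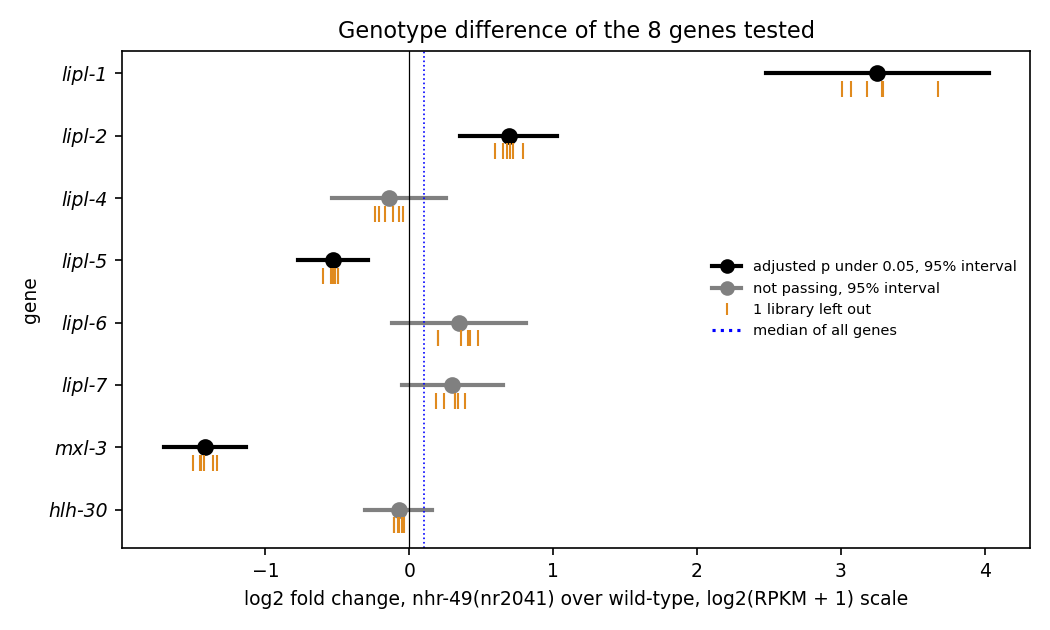
Log2 fold change of the 8 genes tested, *nhr-49(nr2041)* over wild-type on the log2(RPKM + 1) scale, with 95% confidence intervals (black where the adjusted p was under 0.05, grey elsewhere), ticks for the value with 1 library left out and a dotted line at the median of all genes, 0.10. The intervals of *lipl-1* (2.48 to 4.03) and *mxl-3* (lower bound -1.71) lie far from 0, and those of *lipl-4* and *hlh-30* include it.

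RPKM is per length, so that the levels of these genes can be set beside each other as far as the lengths behind it hold. Those lengths, solved from the values, were 0.777 (*lipl-4*) to 1.284 (*lipl-5*) times the exon length annotated in Ensembl. In the mutants the order of mean RPKM was *lipl-5* (166), *lipl-1* (73.2), *mxl-3* (50.5), *hlh-30* (40.1), *lipl-2* (14.8), *lipl-7* (11.8), *lipl-6* (10.1), *lipl-4* (0.891) and *lipl-3* (0.291). Of these neighbours in order, only *lipl-7* and *lipl-6* had libraries that overlapped. In wild-type animals the order was *lipl-5* (240), *mxl-3* (137), *hlh-30* (42.2), *lipl-7* (9.32), *lipl-2* (8.87), *lipl-6* (7.76), *lipl-1* (7.52), *lipl-4* (1.09) and *lipl-3* (0.410), and the 4 genes from *lipl-7* to *lipl-1* overlapped from each one to the next. With annotated lengths, an alternative chosen after seeing the data, the mutant order was the same, while in wild-type animals *lipl-2* (9.89) came before *lipl-7* (9.58) and *lipl-1* (7.46) before *lipl-6* (7.07), still with overlap from each to the next. *lipl-1* was thus among 4 overlapping genes in wild-type animals, and was second only to *lipl-5* in the mutants. Of those 4 genes it was the lowest in wild-type replicates 1 and 2 and the highest in wild-type replicate 3, so that its overlap rests on replicate 3.

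The summed RPKM of the 7 lipase genes overlapped between genotypes, while the *lipl-5*, *lipl-1*, *lipl-2* and *lipl-7* shares of it did not. The shares of *lipl-3*, *lipl-4* and *lipl-6* overlapped. Shares of the same sum are not independent of each other. The sum was 275, 273 and 282 RPKM in the mutants, against 282, 284 and 260 RPKM in wild-type animals. *lipl-5* made up 59.0%, 62.0% and 58.8% of the sum in the mutants, against 89.5%, 88.4% and 83.8% in wild-type animals. *lipl-1* made up 25.4%, 25.4% and 28.5% in the mutants, against 1.79%, 1.59% and 4.998% in wild-type animals. The *lipl-2* share was 5.70%, 5.20% and 5.18% in the mutants, against 2.69%, 3.07% and 3.97% in wild-type animals. That of *lipl-7* was 4.997%, 3.73% and 4.02% in the mutants, against 3.50%, 3.015% and 3.67% in wild-type animals. Without *lipl-5* the sum was 111 ± 6.53 RPKM in the mutants and 34.97 ± 6.47 RPKM in wild-type animals (SD, n = 3 each). The sum depends on the length taken for *lipl-5*. With annotated lengths it was 322, 321 and 330 RPKM in the mutants, against 354, 355 and 322 RPKM in wild-type animals, where only wild-type replicate 3 lay within the range of the mutants. The *lipl-5* share was then 65.7% in the mutants and 89.7% in wild-type animals, and the *lipl-1* share was 22.4% in the mutants and 2.22% in wild-type animals. These sums and shares are descriptions of the values already tested gene by gene, and no test was run on them.

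**Figure D3:**
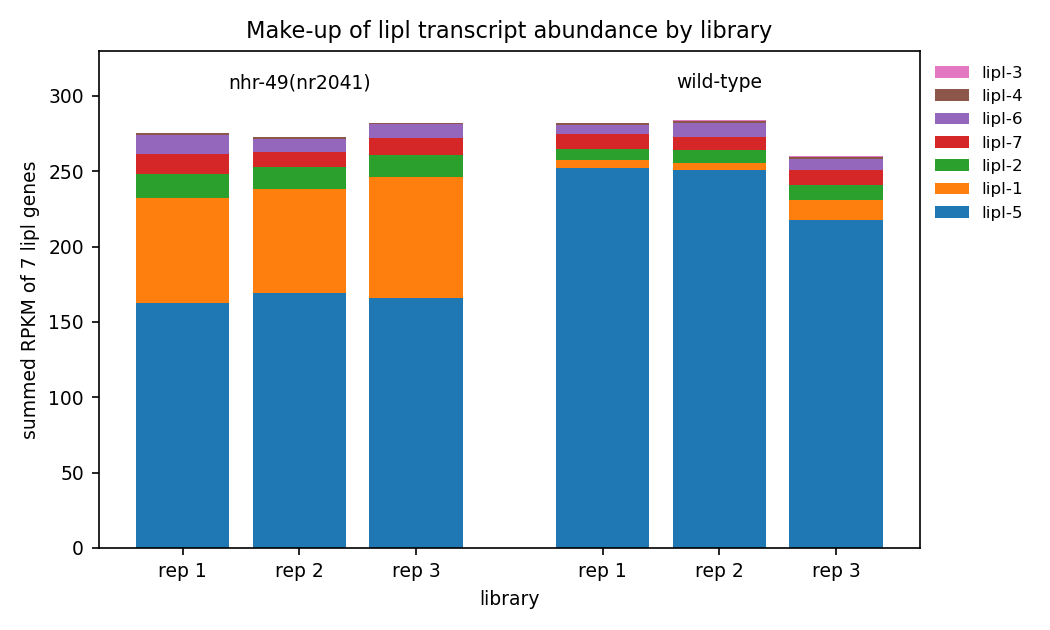
Summed RPKM of the 7 *lipl* genes in each library, stacked by gene, for *nhr-49(nr2041)* mutants on the left and wild-type animals on the right. All 6 bars end between 260 and 284 RPKM, with *lipl-1* at 69.2 to 80.4 RPKM of each mutant bar and at 4.53 to 12.99 RPKM of each wild-type bar.

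For each gene that passed, the 3 genes tested with the most similar pattern were found by Pearson's r over the 6 libraries on log2(RPKM + 1), as a description. Points within a genotype share it, so that a genotype difference alone gives a high r. *mxl-3* was most like ZK1025.3 (r = 0.998), the isocitrate lyase gene *icl-1* of the glyoxylate cycle (r = 0.996) and *acs-16* (r = 0.995). ZK1025.3 was at 12.8, 15.6 and 15.5 RPKM in the mutants, against 82.3, 116 and 65.2 RPKM in wild-type animals. *icl-1* was at 53.2, 61.3 and 66.8 RPKM in the mutants, against 229, 341 and 227 RPKM in wild-type animals. In all 3 of *mxl-3*, ZK1025.3 and *icl-1* the highest library was wild-type replicate 2 and the lowest was mutant replicate 1. *lipl-5* was most like ZK1025.3 (r = 0.987) and *mxl-3* (r = 0.986), then Y71H2AM.13 (r = 0.983). *lipl-1* was most like K01A2.4 (r = 0.998), C31H5.6 (r = 0.995) and the plastin gene *plst-1* (r = 0.994), which like it were higher in wild-type replicate 3 than in the other wild-type libraries. *lipl-2* was most like F25D1.5 (r = 0.998), F44E2.7 (r = 0.995) and C50B6.7 (r = 0.990).

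Other genes of lipid release, of the lysosome and of nutrient sensing were taken from lists. Of 86 list genes tested, 3 were higher and 1 was lower, the mutated gene *nhr-49* itself. With it the share was 4.65%, which is near the 4.13% of all genes. The median log2 fold change of the 86 genes was 0.13. The highest was *fil-1*, a fasting-induced lipase gene, at 18.2, 11.1 and 12.5 RPKM in the mutants, against 3.34, 4.34 and 2.50 RPKM in wild-type animals (log2 fold change 1.76, SE 0.23, limma adjusted p = 0.0048). Its call held under all 17 alternatives. Its relative *fil-2* was at 0.319, 0.473 and 0.465 RPKM in the mutants, against 0.0972, 0 and 0.0360 RPKM in wild-type animals. These low values did not overlap, but *fil-2* did not reach the level for testing. The neutral lipase genes of lipid droplets, *atgl-1* and *hosl-1*, and the lipid droplet gene *lid-1* had log2 fold changes of 0.23, -0.08 and 0.35, and none passed (adjusted p of at least 0.368 from limma).

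Among 20 tested genes of lysosome membranes, transporters and soluble hydrolases, 2 rose and 0 fell, and 18 did not pass, where 3.32% of all genes tested were higher and 0.816% lower. At that share a list of this size holds few calls or none, and the count is given as a description. The median was 0.20. *lmp-2*, one of the worm's LAMP-like lysosomal membrane genes, was at 22.01, 16.23 and 16.1 RPKM in the mutants, against 6.63, 8.62 and 8.36 RPKM in wild-type animals (log2 fold change 1.10, limma adjusted p = 0.0103). *cln-3.3*, a homolog of the human gene of juvenile Batten disease, was at 23.5, 23.5 and 21.03 RPKM in the mutants, against 10.3, 13.2 and 13.3 RPKM in wild-type animals (log2 fold change 0.84, limma adjusted p = 0.0126). Without mutant replicate 2 or wild-type replicate 1 the *cln-3.3* call was lost (adjusted p = 0.0765 and 0.0557 from limma). With a block for replicate number the calls of *lmp-2* and *cln-3.3* were both lost (adjusted p = 0.0725 and 0.0737 from limma). The abundant protease genes *cpl-1*, *asp-1* and *asp-3* had log2 fold changes of 0.12, 0.33 and 0.02 and did not pass.

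The autophagy genes and the vacuolar ATPase genes, both groups with known HLH-30 targets, held no call. With 4.13% of all genes tested called, a count of 0 in lists of this size is near the background and is not a result about these genes. Of 19 autophagy genes 0 passed, with 1 at an unadjusted limma p under 0.05, *sqst-1*, the p62 homolog (log2 fold change 0.42, adjusted p = 0.320). Their median was 0.11. The next was *lgg-1*, the Atg8 homolog, at 554, 289 and 279 RPKM in the mutants, against 234, 265 and 225 RPKM in wild-type animals (log2 fold change 0.56, limma adjusted p = 0.417), with mutant replicate 1 far above the rest. Of 20 vacuolar ATPase genes 0 passed, with 2 at an unadjusted limma p under 0.05, *vha-7* and *vha-17* (log2 fold changes 0.35 and 0.31). The log2 fold changes of the vacuolar ATPase genes ran from 0.04 to 0.35. Over all 13965 genes tested, 1521 were higher and 318 lower at an unadjusted limma p under 0.05. In other lists, calls included, that count was 6 of 20 lysosome genes and 2 of 4 neutral and fasting-induced lipase genes. It was 3 of 4 genes in the pathway of LIPL-4.

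The same reading applies to the smaller lists that follow. In the network of MAX and MLX proteins to which *mxl-3* belongs by sequence, 0 of 4 genes passed by limma, with 1 at an unadjusted limma p under 0.05. That gene was *mdl-1*, the MAD homolog, at 36.0, 51.6 and 49.03 RPKM in the mutants, against 75.1, 65.4 and 75.0 RPKM in wild-type animals, where no libraries overlapped (log2 fold change -0.66, limma adjusted p = 0.0706). *mxl-1* and *mxl-2*, the MAX and MLX homologs, had log2 fold changes of 0.19 and 0.02. In the pathway of LIPL-4, *lbp-8* was at 4.49, 2.92 and 3.24 RPKM in the mutants, against 1.55, 2.61 and 2.39 RPKM in wild-type animals (log2 fold change 0.51, limma adjusted p = 0.354). The receptor gene *nhr-80* was at 19.03, 17.6 and 19.1 RPKM in the mutants, against 13.5, 15.3 and 13.6 RPKM in wild-type animals (log2 fold change 0.37, limma adjusted p = 0.187). In that list only *nhr-49*, the mutated gene, was called (log2 fold change -0.65, limma adjusted p = 0.0164). That call was lost without mutant replicate 2 (limma adjusted p = 0.0821) and without wild-type replicates 1, 2 and 3 (limma adjusted p = 0.093, 0.0551 and 0.0832). Of 10 nutrient-sensing genes, among them *let-363*, the TOR kinase, and *xpo-1*, the exportin known to control HLH-30, 0 passed and 0 had an unadjusted limma p under 0.05. The smallest p there were those of *rsks-1* and *aak-1* (log2 fold changes -0.28 and -0.29). The same held for 5 further transcription factors tied to *lipl* genes, of which *skn-1* and *pha-4* had the smallest p (log2 fold changes 0.20 and 0.24).

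**Figure D4:**
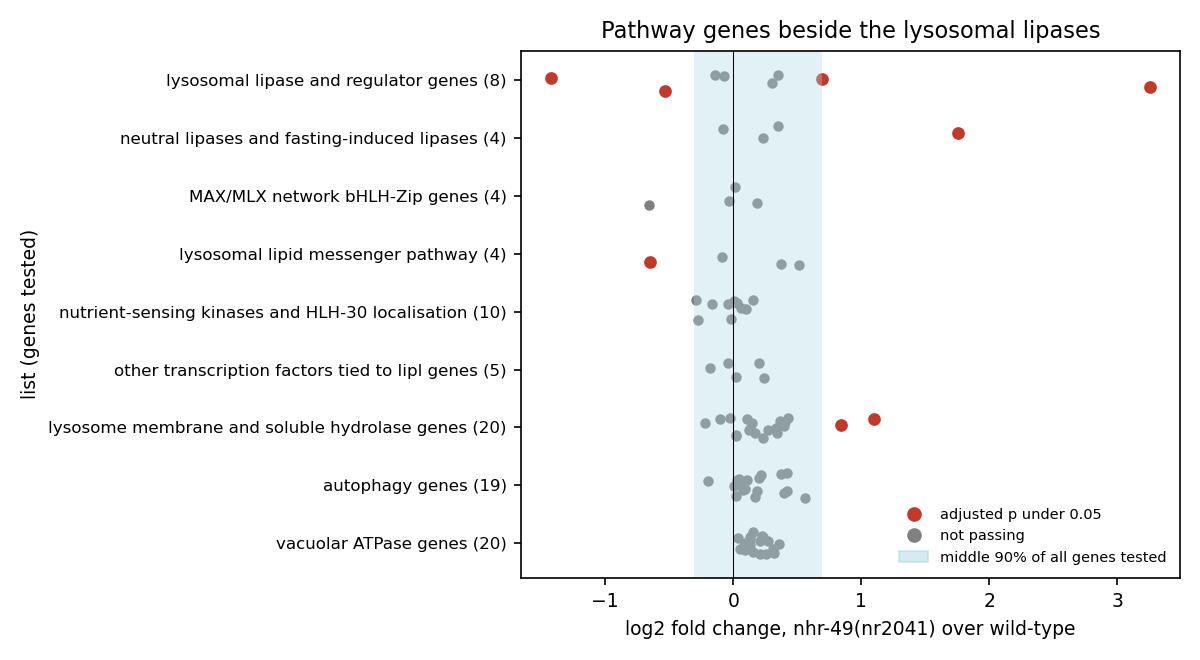
Log2 fold change of every tested gene in each list, *nhr-49(nr2041)* over wild-type, 1 point per gene with red for an adjusted p under 0.05, and a shaded band for the middle 90% of all genes tested (-0.31 to 0.70). Height within a row carries no value. *lipl-1* and *mxl-3* lie at the 2 ends, and the autophagy and vacuolar ATPase rows hold no red point.

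Marker genes of tissues that the whole animals hold did not pass the test one by one. Of 8 intestinal markers 0 passed (median log2 fold change 0.13), and their summed RPKM was 1934 to 2402 in the mutants and 1909 to 2207 in wild-type animals, so that the ranges overlapped. Of 7 body wall muscle markers 0 passed (median -0.44), with sums of 2807 to 4234 RPKM in the mutants and 4499 to 4689 RPKM in wild-type animals. These muscle ranges did not overlap, with every mutant library lower. The sum of 6 neuronal markers was 166 to 249 RPKM in the mutants and 134 to 171 RPKM in wild-type animals. The sum of 4 germline markers was 169 to 458 RPKM in the mutants and 285 to 474 RPKM in wild-type animals. *col-19*, an adult cuticle collagen, was at 79.1, 102 and 92.1 RPKM in the mutants, against 244, 43.6 and 211 RPKM in wild-type animals. No marker was at 0 in all libraries. The part of these tissue and stage differences in the results above was not tested. Without mutant replicate 1 and wild-type replicate 2 the log2 fold changes of *lipl-1*, *mxl-3*, *lipl-2* and *lipl-5* were 3.04, -1.27, 0.64 and -0.48. All 4 passed (largest limma adjusted p = 0.0460, for *lipl-1*). The pair was picked from the spread of these same libraries. Without it 950 genes over all were higher and 350 lower, against 463 and 114 in the full fit. Passing there is thus no independent check, and it was not a test of tissue or stage.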

How the data were processed

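The authors deposited RPKM for each gene in each of 6 libraries, with the mean RPKM of each genotype, made in CLC Genomics Workbench. Per the labels the genome build was WBcel235. Neither mapping settings nor the annotation version is given in the sources used here. The authors compared genotypes by Baggerly's test with FDR correction.

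RPKM are not counts, so genotypes were compared with limma 3.58.1 in R 4.3.3 (lmFit and robust, trended eBayes, with statmod 1.5.0) on log2(RPKM + 1). Genes that reached 1 RPKM in 3 or more libraries entered the fit (13965), with genotype as the only term and Benjamini-Hochberg adjustment. Intervals are 95%. Whole reads, within 0.01 reads, were recovered for 100.0% of the 19579 genes above 0 and used for depth and for limma voom. The limma fit on log2(RPKM + 1) was tested on simulated counts. These gave every gene the same relative spread beyond counting error, and libraries of a genotype differed only in depth. The simulation thus cannot check the fit under the spread of the real libraries. Positions come from Ensembl release 115 (WBcel235). Tables and figures were made in Python 3.11.15 (pandas 2.3.3, numpy 2.4.6, scipy 1.17.1, matplotlib 3.10.9).

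The members, lists and alternatives were chosen with earlier results of these data known. Named genes are the 9 members, list genes that passed or else the 2 with the smallest p in their list, *nhr-49*, and the 3 genes most like each member that passed. Others were named after their values were seen: *fil-2*, *atgl-1*, *hosl-1*, *lid-1*, *cpl-1*, *asp-1*, *asp-3*, *mxl-2*, *lbp-8*, *nhr-80*, *let-363*, *xpo-1*, *lipl-8*, *dhrs-4*, ZK6.6 and *ech-8*. Of 21 lysosome genes listed, 20 had a row of that name. Alternatives were quantile normalization, library medians set equal, no filter, at least 5 RPKM in 3 libraries, each library left out in turn, a block for replicate number, pseudocounts of 0.1 and 0.5, 2 libraries left out together, voom, an unadjusted p, an added log2 fold change above 0.5 and, for levels between genes, annotated exon lengths.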

Additional observations from a re-analysis of the deposited data

How the results depend on the processing

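No direction of any of the 8 genes tested reversed under any alternative. *lipl-1* and *mxl-3* kept their calls under all 17 alternatives, with log2 fold changes from 3.01 to 3.68 and from -1.55 to -1.27. *lipl-2* lost its call under 10 alternatives and *lipl-5* under 6. Among the 17, the unadjusted p and the added log2 fold change above 0.5 reuse the main fit. Neither could remove the call of a gene beyond that fold change. With 2 members higher and 2 lower as reported, the higher count was 1 after quantile normalization, with library medians set equal and with no filter. Leaving out 1 library, the counts were 1 higher throughout and 1 to 2 lower, over all genes 319 to 506 higher and 63 to 138 lower, and for list genes 2 to 3 higher and 0 to 2 lower. Without mutant replicate 1 and wild-type replicate 2 together, 950 genes were higher and 350 lower, and 8 list genes were higher and 2 lower. At an unadjusted p, 1521 genes were higher and 318 lower, and 13 list genes were higher and 2 lower. With library medians set equal, 2 list genes were lower. With annotated exon lengths, chosen after seeing the data, the mean summed RPKM of the lipase genes was 324 in the mutants and 344 in wild-type animals, and *mxl-3* over *hlh-30* averaged 1.38 in the mutants and 3.55 in wild-type animals. Deviations of same-numbered libraries from their genotype means had correlations of -0.33, -0.16 and 0.34, where other pairs ran from -0.44 to 0.42. So few libraries cannot show whether the replicate numbers pair them. With a replicate block 1 member was higher and 1 lower (*lipl-1* and *mxl-3*, adjusted p = 0.0031 and 0.0063 from limma), 64 genes were lower over all, and 1 list gene was higher and 0 lower. With 3 libraries per genotype, *lipl-3* and *lipl-4*, at 3 to 53 reads, were measured too loosely to show any but a large change.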

Other observations

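The nearest protein-coding gene on each side of each of the 9 genes was looked up in the annotation, 18 in all, of which 14 could be tested. Of these 0 rose and 2 fell, where 3.32% of all genes tested were higher and 0.816% lower, so that a count of 0 higher is near the background. The genes that fell were *dhrs-4* beside *lipl-1* and ZK6.6 beside *lipl-5*, both named after their values were seen. *dhrs-4*, a short-chain dehydrogenase gene that starts 915 bp after the end of *lipl-1* on the same strand, was at 12.4, 9.73 and 10.7 RPKM in the mutants, against 24.9, 27.2 and 27.6 RPKM in wild-type animals. By limma its log2 fold change came to -1.22 with an SE of 0.13 and an adjusted p of 0.0012, and the call held under all 17 alternatives, so that these neighbours changed in opposite directions. ZK6.6, which starts 956 bp after *lipl-5* on the same strand, was at 1.09, 0.798 and 0.663 RPKM in the mutants, against 2.11, 3.05 and 2.06 RPKM in wild-type animals (log2 fold change -0.88, adjusted p = 0.0403 from limma). That call was lost without any 1 of the 6 libraries (adjusted p = 0.052 to 0.160 from limma). *ech-8*, 101 bp from *lipl-7*, was at a mean of 6.53 RPKM in the mutants and 12.9 RPKM in wild-type animals, with an adjusted p of 0.1002 (limma). Of the 9 genes 6 lie on chromosome V, though none of these 6 is the nearest neighbour of another.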
